A study of Mus musculus with 12 samples.

Results

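The respiratory chain genes described here are the nuclear genes for subunits of the 4 electron transfer complexes and of ATP synthase, counted as complex V. A gene was a member when a probe set of the array named it as its only gene and its symbol began with Ndufa, Ndufb, Ndufc, Ndufs or Ndufv and a number, with Uqcr, with Cox4 to Cox8 or with Atp5, or was Sdha, Sdhb, Sdhc or Sdhd. This gave 80 of the 22180 genes with an unshared probe set: 33 of complex I, 4 of complex II, 8 of complex III, 17 of complex IV and 18 of complex V. A low-value filter, the 30th percentile of an array's own values on at least 3 arrays, was passed by 75 of them. The other 5 were Cox8b, Cox8c and Cox7b2, which are tissue-restricted isoforms of complex IV, and the pseudogenes Uqcrh-ps1 and Atp5c1-ps. The symbols Cox6c, Ndufb2, Ndufb4, Ndufb4b, Ndufb4c, Ndufs5-ps, Ndufs6, Ndufs6b and Uqcr10 occurred only on probe sets that name several genes, so they are not among the 80. Those shared probe sets, together with the shared ones of Ndufs1 and Uqcrb, did not pass the test in any comparison below. Cyc1, cytochrome c1 of complex III, has a symbol outside the rule and is counted below with the electron carriers.

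The samples were fibroblasts of E13.5 mouse embryos, with the strains C57Bl/6 and 129X1/SvJ in their label and the genotype Col1a1::tetOP-OKSM ; R26-M2rtTA. Every sample thus carried a tetracycline-responsive cassette for Oct4, Klf4, Sox2 and Myc in the Col1a1 locus and the transactivator that doxycycline switches on in the Rosa26 locus. All cells were kept in embryonic stem cell medium with 15% serum and 1000 U/ml LIF, were infected with a retroviral hairpin and received doxycycline, so no group lacked the factors. The 4 groups of 3 arrays were a Renilla control hairpin or a Chaf1a hairpin, each after 3 or 6 days. Chaf1a encodes the large subunit of the histone chaperone CAF-1. The series asks how loss of CAF-1 changes expression while fibroblasts are being reprogrammed. The origin of the replicates, 1 culture or several, is unstated, so a p-value below measures the spread between these samples, which may be technical.

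Complex I takes electrons from NADH and complex II from succinate, and both pass them through ubiquinone to complex III, cytochrome c and complex IV, which reduces oxygen. Complexes I, III and IV pump protons, and complex V uses the gradient to make ATP. A few subunits are encoded by mitochondrial DNA and all others by nuclear genes, which several tissues supply with their own isoforms. Fibroblasts respire, and pluripotent cells are known to rely more on glycolysis.

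Values are log2 of the RMA-normalised intensity of a probe set, a ± gives the SD of the 3 arrays, and a difference of 1 on this scale is a doubling. Probe sets bind with unlike strength, so no gene's level is set against that of another gene. Arrays of one group correlated at 0.992 to 0.995 (Pearson's r, across probe sets, which are not independent replicates). Chaf1a itself stood at 7.44, 7.72 and 7.42 on day 3 control arrays against 7.35, 7.18 and 7.19 on day 3 knockdown arrays, 1.22-fold lower and without overlap. On day 6 it stood at 7.06, 7.30 and 7.31 in controls and 7.04, 7.16 and 7.11 with the hairpin, 1.09-fold lower, with overlapping groups. Within each of the 3 replicate numbers it was lower with the hairpin on both days. Neither difference passed the test (adjusted p = 0.726 and 0.999, and 0.616 and 0.984 with the replicate number as a block), so these arrays show a small difference in the targeted transcript. Of 8 fibroblast markers all passed the filter, among them Vim at 13.26 to 13.38 and Fn1 at 12.16 to 12.44 over the 12 arrays. In a bulk sample fewer cells of a type and less RNA per cell cannot be told apart.

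Most genes of the chain lay above the middle of the array. Of the 80 genes, 71 lay above the array's own median on 12 of 12 arrays: 31 of complex I, 4 of complex II, 7 of complex III, 12 of complex IV and 17 of complex V. That median is over all 41345 probe sets, of which 16010 name no gene. The share of all genes above it on 12 of 12 arrays was not counted. On at least 3 arrays, 72 of the 80 members and 13696 of the 22180 genes reached it. Ndufa4l2 and Ndufs5 passed the filter but lay above the median on 0 arrays, and Cox6a2 did so on 1. A further probe set that names Ndufs5 together with its pseudogene Ndufs5-ps had a mean of 8.04, and which gene it measured was not tested. Cox7a1, the heart and muscle isoform, was above it on 8 arrays. Relative to each gene's mean, the median member deviated by -0.04 to 0.04 on every array, and the same median over complex II ran from -0.12 to 0.10.

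**Figure D1:**
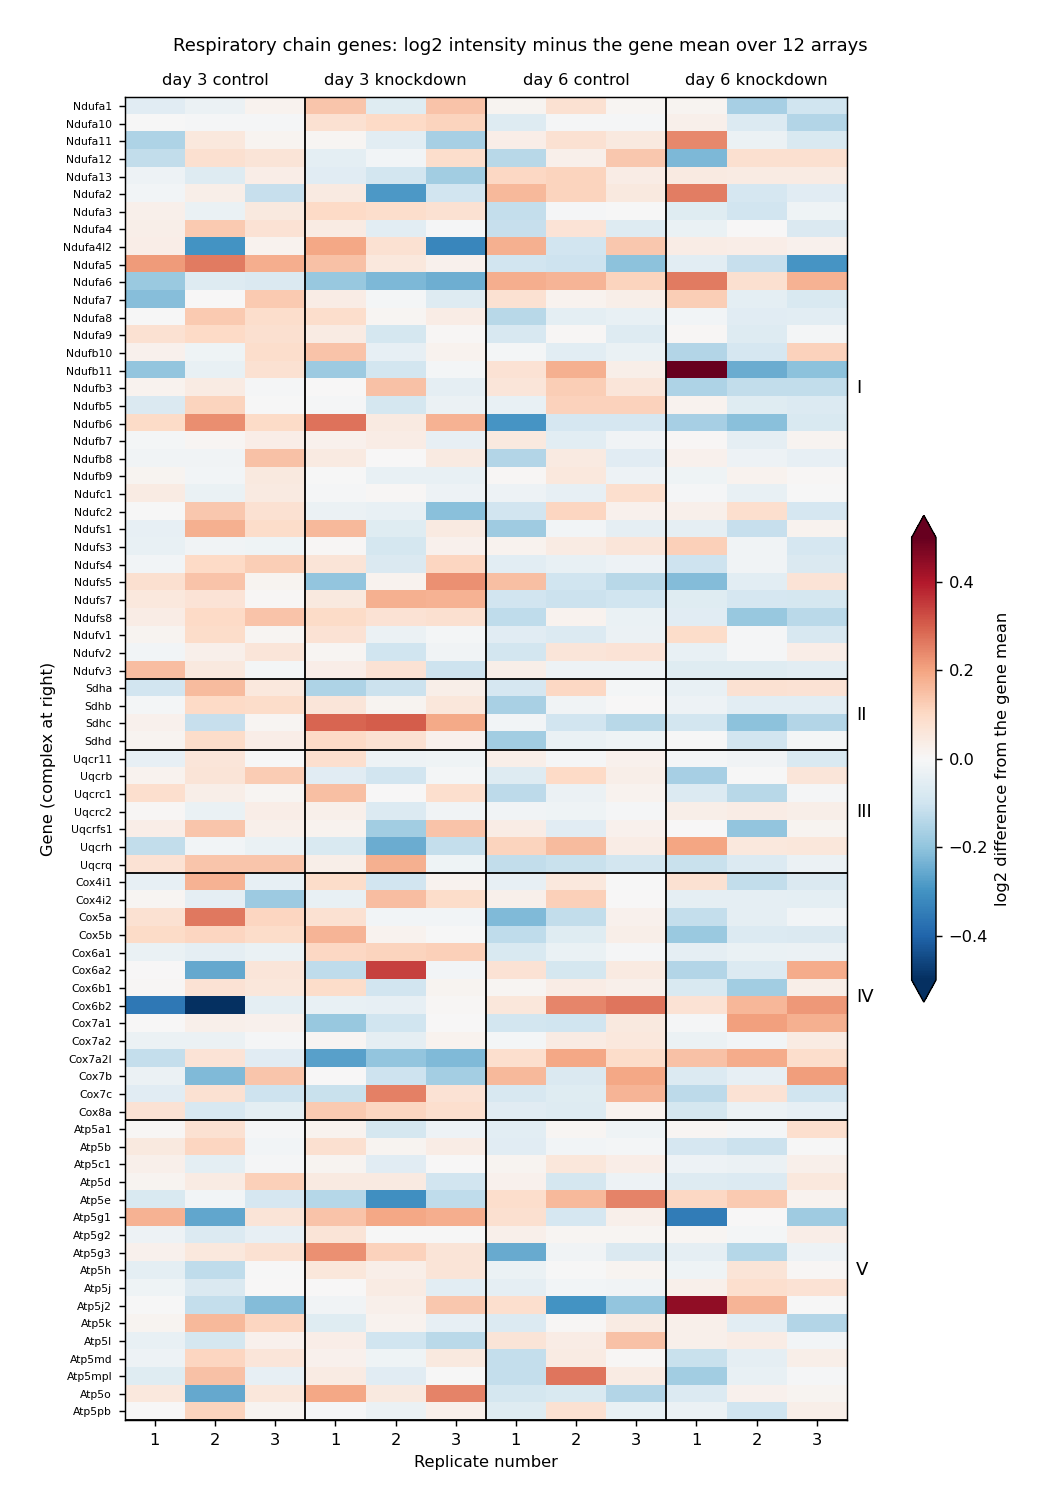
Each row is one of the 75 respiratory chain genes that passed the filter and each column one of the 12 arrays, grouped by day and hairpin; the colour is the log2 intensity minus the gene's mean over the 12 arrays, and complexes are named at right. Most cells are pale, while rows such as Ndufa6 (low at day 3, high at day 6), Ndufa5 (high at day 3, low at day 6) and Sdhc (high on the 3 day 3 knockdown arrays) change colour between groups.

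Between day 3 and day 6 a small set of subunits changed, in both directions and by at most 1.42-fold, while most of the chain did not pass the test. In control cells 3 genes rose, Cox6b2, Ndufa6 and Atp5e, and 4 fell, Ndufa5, Ndufb6, Cox5a and Uqcrq. That is 9.33% of the 75 members, against 17.6% of all 17860 genes tested (6.99% higher and 10.6% lower). The control split of 3 higher and 4 lower became 5 and 4 with repeated quantile normalization and 1 and 4 with each array centred on its median. In knockdown cells 4 genes rose, Ndufa6, Cox7a2l, Atp5e and Uqcrh, and 6 fell, Sdhc, Atp5g1, Ndufb6, Ndufa5, Ndufs7 and Ndufs8. That is 13.3% of members against 17.9% of all genes (7.46% higher and 10.5% lower). The share of members called was thus below the share of all genes in both hairpins. In knockdown cells the 6 lower became 10 with a stricter filter at the 50th percentile, 11 with a mean-variance trend and 3 in a fit on the knockdown arrays alone, and the 4 higher became 2 with centring. The member share there was 20.8% against 25.1% of all genes with the stricter filter, but 21.3% against 19.8% with the mean-variance trend. The test was limma's moderated test over the 12 arrays, two-sided and with no pairing by replicate number. It used Benjamini-Hochberg adjustment over all genes and a threshold of 0.05.

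The median log2 fold change of the members was -0.02 in control and -0.03 in knockdown cells, with 47 and 48 of 75 values below 0, against medians of 0.01 and 0.01 over all genes. By complex, the control medians were -0.02 for complex I, -0.09 for II, -0.05 for III, 0.02 for IV and -0.02 for V. The knockdown medians were -0.03, -0.10, -0.05, -0.08 and -0.03 in the same order. Complexes I, III, IV and V each held values on both sides of 0 in both hairpins. Of the 4 values of complex II, all were below 0 in control cells and 3 in knockdown cells. Day 3 and day 6 arrays did not overlap for 25 members in control cells (11 higher and 14 lower; 33.3%, against 35.3% of all genes, with 19.3% lower) and for 28 in knockdown cells (7 higher and 21 lower; 37.3%, against 34.3%, with 18.9% lower). The 95% interval of the change lay within 0.32 of 0 on the log2 scale for 61 of 75 members in control and 53 of 75 in knockdown cells, against 53.8% and 53.0% of all genes.

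**Figure D2:**
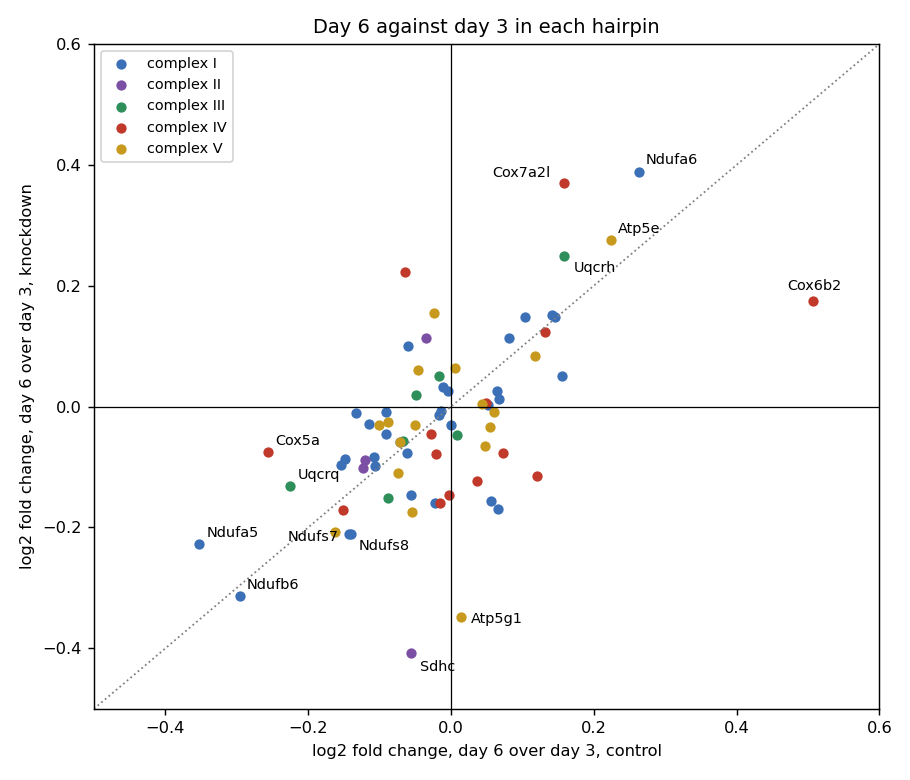
Each point is one of the 75 respiratory chain genes, placed by its log2 fold change from day 3 to day 6 in control cells (horizontal) and in knockdown cells (vertical), coloured by complex; the dotted line marks equal changes and the 13 genes that passed the test in either hairpin are named. Ndufa6, Atp5e, Ndufa5 and Ndufb6 lie near the line away from 0, Cox6b2 lies far to the right at 0.51, and Sdhc and Atp5g1 lie low near a control change of 0.

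Of the 13 genes called in either hairpin, 4 were called in both, each in the same direction: Ndufa5, Ndufb6 and Ndufa6 of complex I and Atp5e of complex V. They were 57.1% of the control calls and 40% of the knockdown calls, against 66.3% and 65.1% over all genes, where 2083 were shared. The sign of the change was the same in both hairpins for 56 of 75 members. The stretch of 250 bases before the start of each of these 4 genes is shown because it is the part of the promoter that was searched for binding motifs of factors known for respiratory genes. Sequences are 5′ to 3′ from RefSeq on the mouse build GRCm38.p6, in lower case, with motif matches in capitals.
Ndufa5, chr6:24527691-24527940, minus strand: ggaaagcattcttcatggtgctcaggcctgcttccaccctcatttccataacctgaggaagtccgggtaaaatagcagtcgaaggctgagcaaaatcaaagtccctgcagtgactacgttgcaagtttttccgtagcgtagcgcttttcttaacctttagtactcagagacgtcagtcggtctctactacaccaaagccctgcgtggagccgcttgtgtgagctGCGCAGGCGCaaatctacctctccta
Ndufb6, chr4:40279422-40279671, minus strand: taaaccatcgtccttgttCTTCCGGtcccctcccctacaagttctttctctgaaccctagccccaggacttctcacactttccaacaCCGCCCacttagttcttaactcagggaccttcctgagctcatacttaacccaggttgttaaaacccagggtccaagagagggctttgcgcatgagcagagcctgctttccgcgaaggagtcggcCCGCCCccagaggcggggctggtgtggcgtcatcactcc
Ndufa6, chr15:82354292-82354541, minus strand: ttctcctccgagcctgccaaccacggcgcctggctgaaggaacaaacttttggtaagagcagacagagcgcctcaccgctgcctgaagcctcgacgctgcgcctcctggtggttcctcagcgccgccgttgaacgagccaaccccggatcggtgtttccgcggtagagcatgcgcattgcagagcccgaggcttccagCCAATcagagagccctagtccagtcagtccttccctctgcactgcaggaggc
Atp5e, chr2:174464102-174464351, minus strand: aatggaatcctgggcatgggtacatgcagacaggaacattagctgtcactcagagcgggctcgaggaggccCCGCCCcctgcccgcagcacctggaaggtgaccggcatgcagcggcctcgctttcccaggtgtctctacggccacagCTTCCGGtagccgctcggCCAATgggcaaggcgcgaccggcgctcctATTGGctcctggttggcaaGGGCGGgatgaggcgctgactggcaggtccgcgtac
RefSeq gave 2 starts for Ndufa5, of which the one farther upstream is shown, and 1 for each of the others. The Ndufa5 window shown held 1 NRF1 match, and that of its other start an Sp1 match. The Ndufb6 window held an ETS match and 2 Sp1 matches, and the Ndufa6 window a CCAAT match only. The Atp5e window held an ETS match, 2 Sp1 matches and 2 CCAAT matches. The 4 windows shown had no single motif of the search in common. A match describes letters in the window and does not show that a factor binds there.

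Ndufa5 and Ndufb6, accessory subunits of the matrix arm and of the membrane arm of complex I, fell in both hairpins. Ndufa5 stood at 7.38, 7.42 and 7.35 on day 3 control arrays and at 7.07, 7.06 and 6.96 on day 6 control arrays. With the Chaf1a hairpin it stood at 7.31, 7.22 and 7.19 on day 3 and at 7.11, 7.05 and 6.87 on day 6. Every day 6 array was below every day 3 array of either hairpin, with falls of 1.28-fold (log2 -0.35, SE 0.07, adjusted p = 0.00491) and 1.17-fold (log2 -0.23, SE 0.07, adjusted p = 0.0430). The control call was kept without any single array, but not without replicate number 2 or 3 in all 4 groups (adjusted p = 0.0835 and 0.0544). The knockdown call was lost with no filter (0.0539), median centring (0.0661), a mean-variance trend (0.0509) and in a fit on the knockdown arrays alone (0.109). With single arrays left out it was kept only without day 6 knockdown replicate 1 or day 3 control replicate 2, and was lost without each of the other 10 arrays, with log2 changes of -0.28 to -0.16 over the 12 fits and adjusted p of 0.0511 to 0.156 where it was lost.

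Ndufb6 stood at 9.41, 9.55 and 9.41 on day 3 and at 9.02, 9.23 and 9.23 on day 6 in controls, and at 9.58, 9.36 and 9.49 and then 9.15, 9.10 and 9.24 in knockdown cells. It fell 1.23-fold in controls (log2 -0.30, SE 0.08, adjusted p = 0.0239) and 1.24-fold in knockdown cells (log2 -0.31, SE 0.08, adjusted p = 0.0175), with no overlap between days. The control call was lost without day 6 control replicate 1 (adjusted p = 0.105) or day 3 control replicate 2 (0.0924). The knockdown call was lost without day 3 knockdown replicate 1 (0.0704), day 6 knockdown replicate 2 (0.0675) or day 3 knockdown replicate 3 (0.0525). Counting also the fits without a replicate number in all groups, the control call was lost in 5 of 15 fits and the knockdown call in 6 of 15.

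Ndufa6, an accessory subunit of the matrix arm of complex I, rose in both hairpins. In control cells it stood at 8.43, 8.55 and 8.54 on day 3 and at 8.79, 8.78 and 8.72 on day 6. In knockdown cells it stood at 8.42, 8.39 and 8.37 on day 3 and at 8.87, 8.69 and 8.78 on day 6. All 6 day 6 arrays were above all 6 day 3 arrays. The rises were 1.20-fold (log2 0.26, SE 0.06, adjusted p = 0.0124) and 1.31-fold (log2 0.39, SE 0.06, adjusted p = 0.00114), and both calls were kept without any single array. With a replicate number left out of all 4 groups the control call was lost each time (adjusted p 0.0842 to 0.104), and the knockdown call was lost without number 3 (0.0556). With each array centred on its median the control rise was 0.22 and no longer passed (adjusted p = 0.0873).

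Ndufs7 and Ndufs8, core subunits of complex I that carry iron-sulfur clusters, fell in knockdown cells. Ndufs7, which holds the last cluster before ubiquinone, stood at 10.31, 10.44 and 10.44 on day 3 and at 10.20, 10.18 and 10.17 on day 6 with the Chaf1a hairpin, a 1.16-fold fall (log2 -0.21, SE 0.05, adjusted p = 0.0187). Its control arrays went from 10.32, 10.33 and 10.27 to 10.17, 10.16 and 10.16, also without overlap, but the change of -0.14 did not pass (adjusted p = 0.0969). Ndufs8 stood at 9.88, 9.86 and 9.87 and then at 9.73, 9.60 and 9.65 in knockdown cells, a 1.16-fold fall (log2 -0.21, SE 0.06, adjusted p = 0.0305). In control cells Ndufs8 changed by -0.14 (adjusted p = 0.142). The Ndufs7 call was lost without any of knockdown replicates 2 and 3 of either day (adjusted p 0.0528 to 0.0720). The Ndufs8 call was lost without those 4 arrays or day 3 knockdown replicate 1 (adjusted p 0.0638 to 0.113). Both calls were also lost in a fit on the knockdown arrays alone (0.0718 and 0.0682), that of Ndufs7 with repeated quantile normalization (0.0577) and that of Ndufs8 with median centring (0.0648). Counting also the fits without a replicate number in all groups, the Ndufs7 call was lost in 6 of 15 fits and the Ndufs8 call in 8 of 15.

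In complex II, Sdhc, which with Sdhd anchors succinate dehydrogenase in the inner membrane, fell 1.33-fold in knockdown cells (log2 -0.41, SE 0.06, adjusted p = 0.00104). Its day 3 knockdown arrays read 9.62, 9.63 and 9.51 and its day 6 knockdown arrays 9.24, 9.12 and 9.18. The day 3 and day 6 control arrays read 9.35, 9.21 and 9.34 and 9.31, 9.23 and 9.19, a change of -0.06 that did not pass (adjusted p = 0.617). The day 3 knockdown arrays were the highest 3 of the 12, so the fall with time in knockdown cells and the day 3 difference between hairpins, given below, rest on the same 3 arrays. The knockdown call was kept without any single array. The other subunits, the flavoprotein Sdha, the iron-sulfur protein Sdhb and the anchor Sdhd, did not pass in either hairpin.

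In complex III, Uqcrq, a small subunit near cytochrome b, fell 1.17-fold in control cells (log2 -0.23, SE 0.06, adjusted p = 0.0245). It stood at 6.96, 7.02 and 7.02 on day 3 and at 6.76, 6.77 and 6.79 on day 6, and at 6.91, 7.06 and 6.86 and then 6.77, 6.82 and 6.86 in knockdown cells, where the change of -0.13 did not pass (adjusted p = 0.173). The control call was lost without any control array other than day 3 replicate 1 (adjusted p 0.0570 to 0.0763). Counting also the fits without a replicate number in all groups, it was lost in 8 of 15. Uqcrh, the hinge protein beside cytochrome c1, rose 1.19-fold in knockdown cells (log2 0.25, SE 0.07, adjusted p = 0.0237), from 8.63, 8.45 and 8.58 to 8.90, 8.76 and 8.76. Its control arrays went from 8.58, 8.69 and 8.67 to 8.81, 8.86 and 8.74, also without overlap, with a change of 0.16 that did not pass (adjusted p = 0.137). The knockdown call was lost without day 6 knockdown replicate 1 (adjusted p = 0.0849) or day 3 knockdown replicate 2 (0.0877), with median centring (0.102) and in a fit on the knockdown arrays alone (0.0676). Of the 15 fits that left out an array or a replicate number, 5 lost the Uqcrh call. Uqcrc1, Uqcrc2, Uqcrb, Uqcrfs1 and Uqcr11 did not pass in either hairpin.

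In complex IV, Cox6b2, the testis isoform of the subunit that faces the intermembrane space, rose 1.42-fold in control cells (log2 0.51, SE 0.11, adjusted p = 0.00601). Its day 3 control arrays were spread out, at 9.51, 9.32 and 9.81, and its day 6 control arrays read 9.92, 10.11 and 10.13. In knockdown cells it stood at 9.83, 9.82 and 9.87 on day 3 and at 9.93, 10.03 and 10.08 on day 6, a change of 0.17 that did not pass (adjusted p = 0.297), although the days did not overlap. The control call was kept without any single array, with changes of 0.39 to 0.64, but not without replicate number 2 in all 4 groups (0.36, adjusted p = 0.123). Cox5a, a matrix-facing subunit, fell 1.19-fold in control cells (log2 -0.26, SE 0.07, adjusted p = 0.0322), from 9.75, 9.93 and 9.78 to 9.45, 9.55 and 9.69. Its knockdown arrays read 9.75, 9.66 and 9.66 and then 9.55, 9.63 and 9.66 (change -0.08, adjusted p = 0.545). The Cox5a call was lost without day 6 control replicate 1 or 2 or day 3 control replicate 2 or 3 (adjusted p 0.0569 to 0.135), and also in a fit on the control arrays alone (0.0798). Of the 15 fits that left out an array or a replicate number, 7 lost the Cox5a call.

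Cox7a2l, a relative of the Cox7a subunits that joins complexes III and IV into supercomplexes, rose 1.29-fold in knockdown cells (log2 0.37, SE 0.06, adjusted p = 0.00186). Its knockdown arrays went from 7.48, 7.55 and 7.53 to 7.90, 7.94 and 7.84, and its control arrays from 7.63, 7.82 and 7.69 to 7.83, 7.94 and 7.84. The control change of 0.16 did not pass (adjusted p = 0.113), and the day 3 knockdown arrays were the lowest 3 of the 12. The knockdown call was kept without any single array.

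In complex V, Atp5e, the epsilon subunit of the rotor's central stalk, rose 1.17-fold in control cells (log2 0.22, SE 0.07, adjusted p = 0.0389) and 1.21-fold in knockdown cells (log2 0.28, SE 0.07, adjusted p = 0.0146). It went from 8.13, 8.20 and 8.13 to 8.30, 8.37 and 8.46 in controls and from 8.07, 7.90 and 8.09 to 8.31, 8.34 and 8.23 in knockdown cells. All 6 day 6 arrays were above all 6 day 3 arrays. The control call was lost with the replicate number as a block (adjusted p = 0.0550), with each array centred on its median (0.178), with the mean of its 2 probe sets (0.0762), in a fit on the control arrays alone (0.0598), and without any control array other than day 6 replicate 1 (0.0597 to 0.143). The knockdown call was lost without day 3 or day 6 knockdown replicate 2 (adjusted p = 0.0579 and 0.0582) and with centring (0.0588). Counting also the fits without a replicate number in all groups, the control call was lost in 8 of 15 fits and the knockdown call in 5 of 15. A second Atp5e probe set changed by 0.11 in control cells (adjusted p = 0.324) and by 0.24 in knockdown cells (adjusted p = 0.0312).

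Atp5g1, one of the genes for the c subunit of the proton-driven ring, fell 1.27-fold in knockdown cells (log2 -0.35, SE 0.11, adjusted p = 0.0440). The arrays read 6.38, 6.43 and 6.42 on day 3 and 5.89, 6.24 and 6.06 on day 6. Its control arrays were spread over 6.41, 5.98 and 6.30 on day 3 and 6.32, 6.15 and 6.26 on day 6, a change of 0.01 (adjusted p = 0.950). The knockdown call did not pass with the replicate number as a block (adjusted p = 0.0548) or with no filter (0.0520). With single arrays left out it was kept only without day 3 control replicate 1 or 2 or day 6 knockdown replicate 2. It was lost without each of the other 9 arrays, with adjusted p of 0.0532 to 0.149. Counting also the fits without a replicate number in all groups, it was lost in 11 of 15. The other c subunit genes, Atp5g2 and Atp5g3, changed by 0.06 and -0.16 in control and by -0.01 and -0.21 in knockdown cells without passing.

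**Figure D3:**
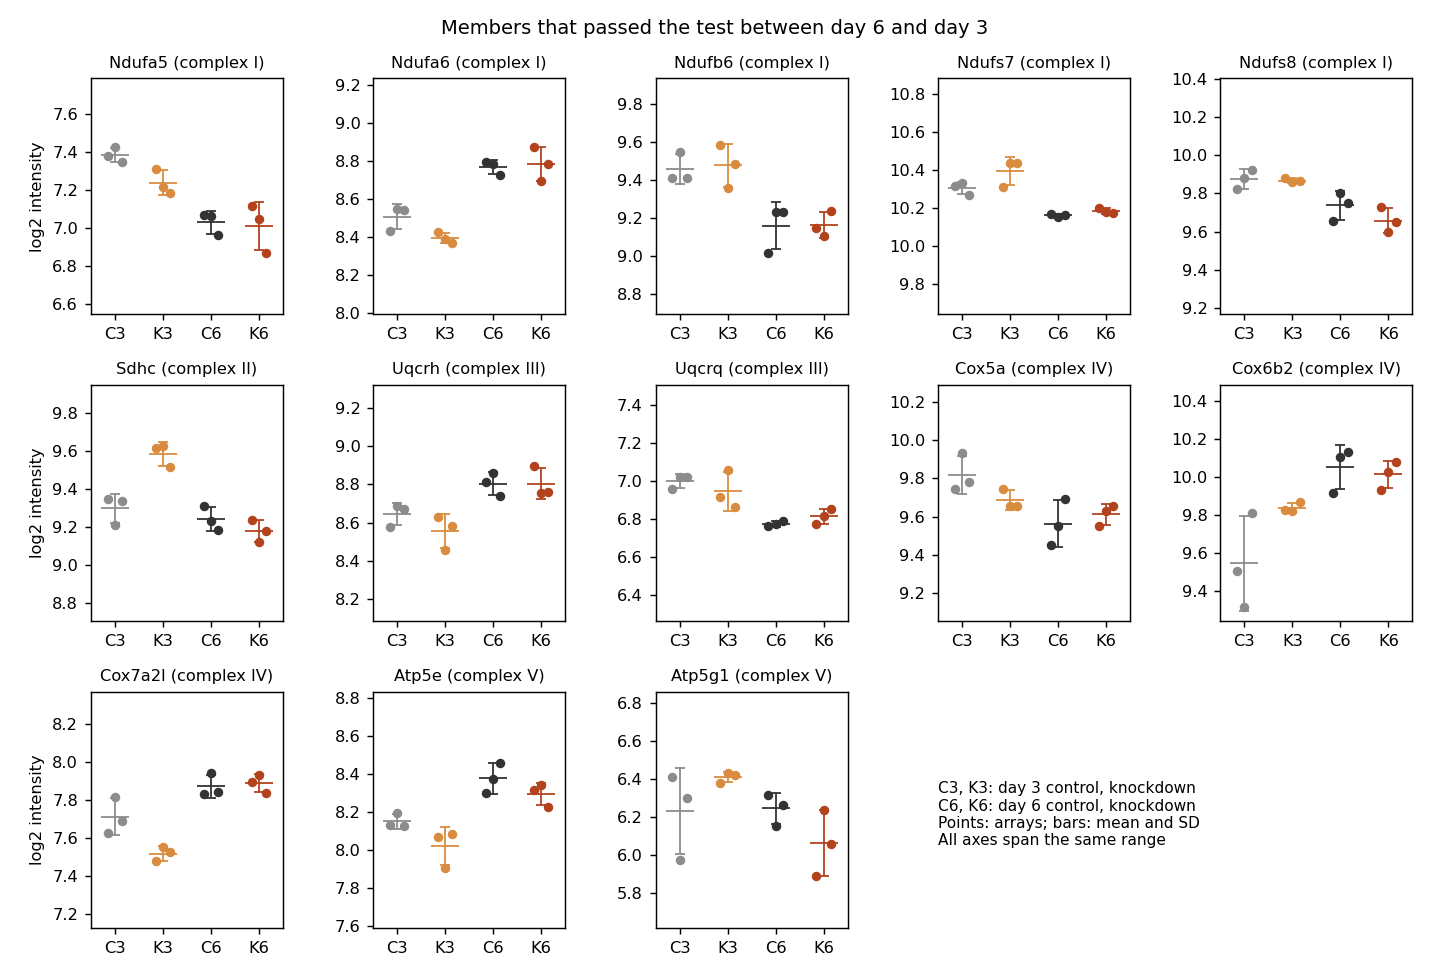
Log2 intensity of the 13 respiratory chain genes that passed the test between day 6 and day 3 in either hairpin, one panel a gene; points are the 3 arrays of a group, bars the mean and SD, and every vertical axis spans the same range. The day 6 points of Ndufa6 and Atp5e lie above all day 3 points in both hairpins, those of Ndufa5 and Ndufb6 below, and Sdhc is highest on the day 3 knockdown arrays.

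Whether time acted differently in the hairpins was tested directly by the difference between the knockdown effects on day 6 and day 3. It called 0 of 75 members and 0.00% of all genes with limma, so a gene called in a single hairpin is not shown to differ between hairpins. At an unadjusted p under 0.05 it marked 7 of 75 members, 2 above 0 and 5 below. That is a larger share than among all genes, where it marked 910 of 17860 (5.10%). The smallest p among members belonged to Sdhc, at -0.35 (SE 0.09, adjusted p = 0.918 with limma). The other members with the smallest p in each direction, none passing, were Ndufb3 (-0.23), Cox4i2 (-0.24), Cox7a1 (0.29), Cox7a2l (0.21) and Cox5a (0.18), with adjusted p of 0.948 to 0.990.

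The Chaf1a hairpin changed no member past the threshold on either day. On day 3 limma called 0 of 75, against 0.00% of all genes, and on day 6 again 0 of 75, against 0.0392% of all genes, which is 7 genes, all higher. The mean of both days also gave 0 of 75, against 0.00% of all genes. At an unadjusted p under 0.05 the members marked were 5 of 75 on day 3, 3 of 75 on day 6 and 5 of 75 for the mean. Among all genes the shares were 6.01%, 4.44% and 5.54%. The member share was slightly above these on day 3 and for the mean, and slightly below on day 6. The median member changed by -0.03 on day 3 and by -0.02 on day 6, against -0.01 and -0.01 over all genes, and the changes ran from -0.19 to 0.29 and from -0.22 to 0.34.

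The intervals, taken gene by gene and not adjusted over genes, show how large a difference between hairpins these arrays leave room for. Chaf1a itself was 1.22-fold lower on day 3 and 1.09-fold lower on day 6, neither past the test. The intervals therefore do not speak to a stronger loss of Chaf1a. On day 3 the 95% interval lay within 0.32 of 0 on the log2 scale for 65 of 75 members (86.7%, against 74.1% of all genes), and on day 6 for 69 (92.0%, against 75.3%). For the mean of both days it did so for 74 of 75 (98.7%, against 93.1% of all genes). The median half-width of a member's interval was 0.14 on either day. By complex, the day 3 medians were -0.03 for complex I and -0.05 for complex III, and within 0.01 of 0 for complexes II, IV and V. The day 6 medians, from complex I to V, were -0.02, 0.03, -0.02, -0.03 and -0.02.

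**Figure D4:**
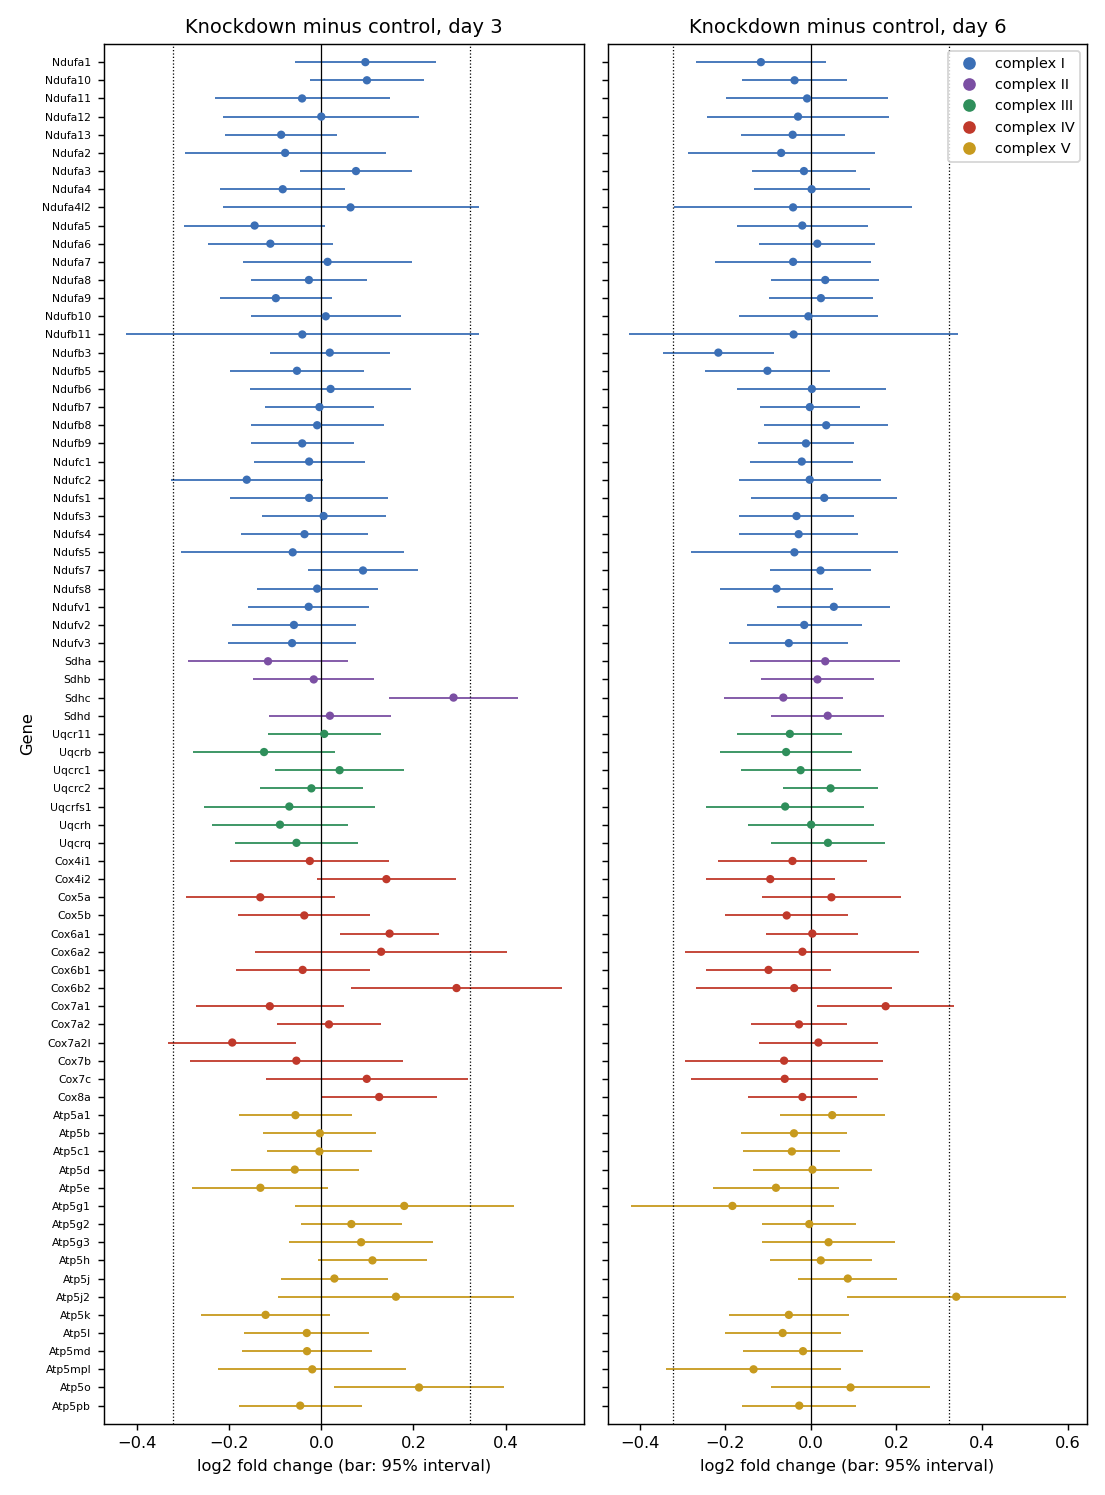
Log2 fold change of knockdown over control on day 3 (left) and day 6 (right) for the 75 respiratory chain genes that passed the filter, with 95% intervals and coloured by complex; dotted lines mark 0.32 either way. Points scatter on both sides of 0 in every complex, and 65 intervals on day 3 and 69 on day 6 lie between the dotted lines.

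Control and knockdown arrays did not overlap for 16 members on day 3 (21.3%, against 10.8% of all genes, with 5.59% lower) and for 8 on day 6 (10.7%, against 10.6%, with 5.57% lower). On day 3 the higher 8 were Ndufa10, Ndufa3, Sdhc, Cox6a1, Cox6b2, Cox8a, Atp5g2 and Atp5h, and the lower 8 were Ndufa5, Ndufa6, Ndufa9, Ndufc2, Uqcrb, Cox5a, Cox7a2l and Atp5e. On day 6 the higher 4 were Ndufs7, Uqcrc2, Atp5j and Atp5o, and the lower 4 were Ndufb3, Ndufv3, Uqcr11 and Cox4i2. No gene was in the lists of both days. Non-overlap takes no account of size: Ndufa10 was among them with 10.85, 10.85 and 10.85 against 10.93, 10.95 and 10.96.

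On day 3 the members with the smallest p, none passing, were Sdhc, Cox6a1 and Cox6b2 on the higher side and Cox7a2l, Ndufc2 and Ndufa5 on the lower. Sdhc was 1.22-fold higher with the hairpin (log2 0.29, SE 0.06, adjusted p = 0.697) on the arrays given above. Cox6a1, the widely expressed isoform of its subunit, stood at 12.48, 12.47 and 12.48 in controls and at 12.61, 12.62 and 12.63 with the hairpin (log2 0.15, SE 0.05, adjusted p = 0.726). Cox6b2 differed by 0.29 (SE 0.11, adjusted p = 0.744), with the spread-out day 3 controls given above. Cox7a2l differed by -0.19 (SE 0.06, adjusted p = 0.726), and Ndufa5 by -0.15 (SE 0.07, adjusted p = 0.844). Ndufc2, an accessory subunit of the membrane arm, stood at 9.54, 9.68 and 9.62 against 9.51, 9.51 and 9.33 (log2 -0.16, SE 0.08, adjusted p = 0.829). These genes share the day 3 arrays with the comparisons over time.

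On day 6 the corresponding members, again none passing, were Atp5j2, Cox7a1 and Atp5j on the higher side and Ndufb3, Atp5g1 and Ndufa1 on the lower. Atp5j2, a membrane subunit of complex V, stood at 6.00, 5.62 and 5.73 in controls and at 6.36, 6.09 and 5.92 with the hairpin, overlapping groups 1.27-fold apart (log2 0.34, SE 0.12, adjusted p = 0.995). Ndufb3, an accessory subunit of the membrane arm, stood at 6.35, 6.41 and 6.34 against 6.13, 6.16 and 6.16, which do not overlap (log2 -0.22, SE 0.06, adjusted p = 0.699). On day 3 the same gene read 6.30, 6.32 and 6.28 in controls and 6.28, 6.43 and 6.24 with the hairpin. Cox7a1 differed by 0.17 (SE 0.07), Atp5j, a peripheral stalk subunit, by 0.09 (SE 0.05), Atp5g1 by -0.18 (SE 0.11) and Ndufa1 by -0.12 (SE 0.07), each with an adjusted p of 0.999. For the mean of both days the members with the smallest p, none passing, were Atp5j2 (0.25), Atp5o (0.15) and Sdhc (0.11) on the higher side and Ndufb3 (-0.10), Atp5e (-0.11) and Cox7a2l (-0.09) on the lower.

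Several complex IV subunits have isoforms with their own tissue pattern. The common isoform lay above the array median on 12 of 12 arrays in each set named here. So did the testis isoform Cox6b2, and what its probe set measures was not tested. Cox4i1, the common isoform, stood at 10.11 ± 0.13 (SD, n = 3), 10.08 ± 0.09, 10.08 ± 0.05 and 10.04 ± 0.10 in day 3 control, day 3 knockdown, day 6 control and day 6 knockdown cells. Cox4i2, the isoform of lung known to respond to hypoxia, stood at 5.95 ± 0.10, 6.10 ± 0.10, 6.08 ± 0.06 and 5.98 ± 0.00 in the same order, also above the median on 12 of 12 arrays. Cox6a1 stood at 12.47 ± 0.01, 12.62 ± 0.01, 12.47 ± 0.04 and 12.48 ± 0.01.

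The muscle isoform Cox6a2 stood at 5.09 ± 0.17, 5.22 ± 0.24, 5.16 ± 0.09 and 5.14 ± 0.17 and was above the median on 1 array. Cox6b1 stood at 10.08 ± 0.04, 10.04 ± 0.09, 10.06 ± 0.01 and 9.96 ± 0.10 and did not pass in any comparison, while the testis isoform Cox6b2 rose in controls as given above. Cox7a2 stood at 9.47 ± 0.01, 9.49 ± 0.04, 9.52 ± 0.03 and 9.50 ± 0.04. The muscle isoform Cox7a1 stood at 5.50 ± 0.01, 5.39 ± 0.10, 5.43 ± 0.08 and 5.61 ± 0.11, and its change over time in knockdown cells of 0.22 (SE 0.07) missed the threshold at an adjusted p of 0.0564 and passed with the replicate number as a block (0.0335). Cox8a stood at 11.40 ± 0.08, 11.53 ± 0.02, 11.39 ± 0.05 and 11.37 ± 0.03, and Cox7b at 9.68 ± 0.18, 9.63 ± 0.09, 9.81 ± 0.15 and 9.75 ± 0.15. Their counterparts Cox8b, of heart and muscle, and Cox8c and Cox7b2, of testis, did not pass the filter.

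Ndufa4, carried in the complex I gene family by its symbol but known as a subunit of complex IV, stood at 10.43 ± 0.05, 10.35 ± 0.05, 10.32 ± 0.09 and 10.32 ± 0.04. Its hypoxia-inducible relative Ndufa4l2 stood at 5.09 ± 0.19, 5.15 ± 0.27, 5.25 ± 0.15 and 5.20 ± 0.01, above the median on 0 arrays. Of 9 muscle markers 7 passed the filter and none passed the test between groups of the same hairpin or day. Their mean level was 5.30 to 5.45 over the day 3 control arrays and 5.38 to 5.39 over the day 6 knockdown arrays. Of 5 brown adipocyte markers 4 were matched and 3 passed the filter and none passed the test, with Ucp1 at 4.47 to 4.86.

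Genes that act around the complexes were counted in lists assembled by function. Assembly factors, which build the complexes, fell in 13 of 46 tested cases in control cells and in 5 of 46 in knockdown cells, and none rose. These shares of 28.3% and 10.9% stand beside 10.6% and 10.5% of all genes that were lower, and the share in knockdown cells was near that of all genes. Their median change was -0.18 and -0.11, with 38 and 34 of 46 values below 0. Ecsit, an assembly factor of complex I, fell by 0.42 on the log2 scale in control cells (SE 0.11, adjusted p = 0.0233). Cox18, which inserts a mitochondrially made subunit of complex IV, fell by 0.38 in control and by 0.47 in knockdown cells, and Acad9, of complex I assembly, by 0.32 in control cells. Foxred1 and Cox10, the latter needed for the heme of complex IV, each fell by 0.35 in knockdown cells. Whether the lists differ from the subunits was not tested.

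Ubiquinone and cytochrome c carry electrons between complexes. Of 17 tested genes for electron carriers and their synthesis, 2 rose and 6 fell in control cells, and 1 rose and 4 fell in knockdown cells. The falls were 35.3% and 23.5% of the list, against 10.6% and 10.5% of all genes. The rises were 11.8% and 5.88%, against 6.99% and 7.46%. The list also held Cyc1, a complex III subunit outside the rule for members, and the electron transfer genes Etfa, Etfb and Etfdh. Coq10b, a ubiquinone-binding protein, fell by 0.42 in control and by 0.33 in knockdown cells, and Coq3, a methyltransferase of ubiquinone synthesis, fell by 0.37 in control cells. Coq8b fell by 0.33 in knockdown cells, while Coq8a, a related protein of ubiquinone synthesis, rose by 0.37 in control and by 0.52 in knockdown cells (adjusted p = 0.00127 and 1.2e-04). Cycs, cytochrome c itself, named after its values were seen, fell by 0.35 and by 0.31 (adjusted p = 0.00435 and 0.00784).

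Of 17 tested genes of the tricarboxylic acid cycle and pyruvate dehydrogenase, which supply the electrons, 1 rose and 7 fell in control cells and 1 rose and 6 fell in knockdown cells, with medians of -0.17 and -0.07. The falls were 41.2% and 35.3% of the list, against 10.6% and 10.5% of all genes. Idh3a, of the NAD-dependent isocitrate dehydrogenase, fell by 0.36 and by 0.27, and Ogdh fell by 0.34 in control cells. Pdhx fell by 0.34 in control cells and changed by 0.01 in knockdown cells (adjusted p = 0.966). Mdh2 fell by 0.27 in knockdown cells. The gene that rose was Idh2, the NADP-dependent isocitrate dehydrogenase, by 0.32 in both hairpins (adjusted p = 0.0110 and 0.0111).

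The 10 matched mitochondrially encoded subunits, of 13 listed, did not pass in any comparison. Their mean level per array was 12.64 to 12.81, toward the top of a scale whose highest intensity before log2 was 13421. Whether changes are compressed at that level was not tested. Over time 0 were higher and 0 lower in both hairpins, against 17.6% and 17.9% of all genes called. The median changes of these subunits were 0.06 and 0.06. The smallest adjusted p among them was 0.119 in control and 0.285 in knockdown cells. Protein genes of the mitochondrial ribosome, which translates them, fell in 11 of 71 cases in control and 10 of 71 in knockdown cells, and none rose, with medians of -0.13 and -0.10. These are 15.5% and 14.1% of the list, against 10.6% and 10.5% of all genes. Mrps18b (-0.43), Mrps25 (-0.39) and Mrpl18 (-0.33) changed most among the calls in control cells, and Mrpl18 (-0.42), Mrps10 (-0.38) and Mrps27 (-0.32) in knockdown cells. Genes of the cytosolic ribosome moved both ways, with 2 higher and 4 lower of 61 in control and 5 higher and 4 lower in knockdown cells, and medians of 0.03 and 0.05. The falls were 6.56% in both and the rises 3.28% and 8.20%, against 10.6% and 10.5% lower and 6.99% and 7.46% higher among all genes. Rps4l (-0.60), Rpl37a (-0.46) and Rpl17 (-0.43) led in control cells, and Rps4l (-0.54), Rps19 (0.50) and Rpl17 (-0.44) in knockdown cells. Of 10 genes of the cristae organising complex and other cristae genes, only Chchd3 passed in control cells, with a fall of 0.18. That is 10% of the list, near the 10.6% of all genes that were lower. None of the 10 passed in knockdown cells, where 10.5% of all genes were lower.

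**Figure D5:**
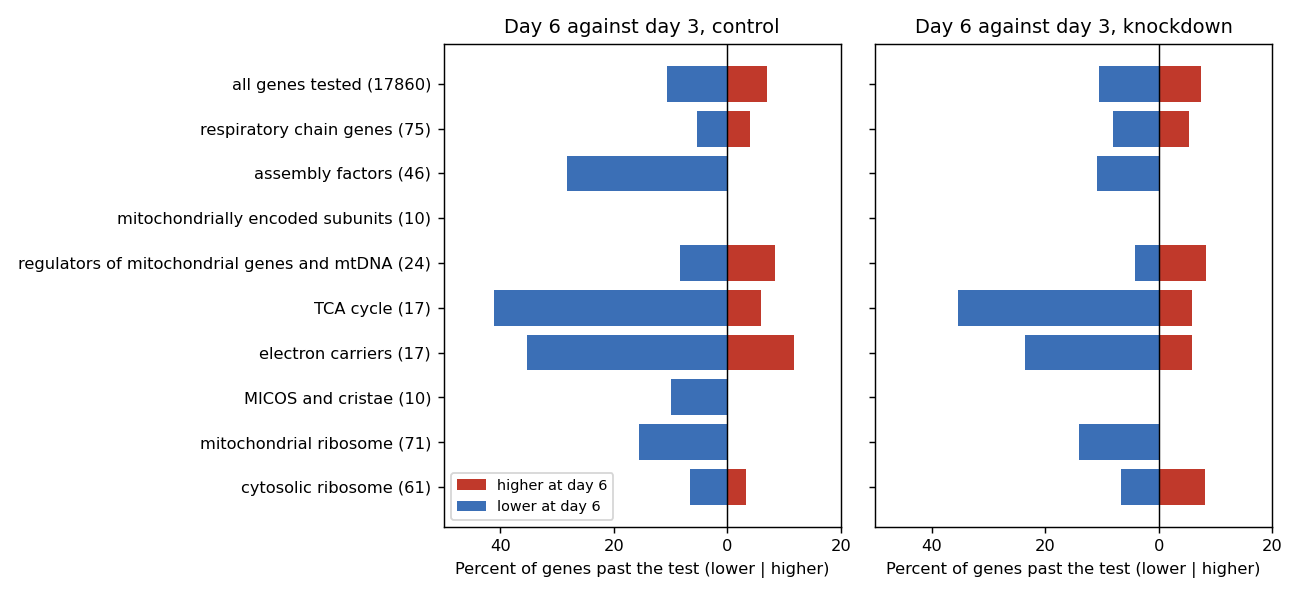
Percent of the tested genes of each list that passed the test as higher (right of 0) or lower (left of 0) on day 6 than on day 3, in control cells (left) and knockdown cells (right); the number tested is beside each name. Respiratory chain genes were lower in 5.33% and 8.0% of cases, below the 10.6% and 10.5% of all genes, while assembly factors were lower in 28.3% and 10.9% and tricarboxylic acid cycle genes in 41.2% and 35.3%.

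Among 24 tested regulators of mitochondrial genes, 2 rose and 2 fell in control cells and 2 rose and 1 fell in knockdown cells. The rises were 8.33% of the list in both, against 6.99% and 7.46% of all genes, and the falls 8.33% and 4.17%, against 10.6% and 10.5%. Ppargc1a, a coactivator known to raise mitochondrial gene expression, rose by 1.26 and by 1.21 on the log2 scale, from 4.04 ± 0.18 to 5.31 ± 0.13 in control and from 3.99 ± 0.06 to 5.20 ± 0.15 in knockdown cells (adjusted p = 1.4e-05 in both). Its day 3 means lay below the filter's lowest limit of 4.30, so it entered the test through its day 6 arrays, where it was higher. Its adjusted p is to be read with that limit. The size of the change depends on values near the bottom of the scale. Yy1 rose by 0.24 and by 0.19, and Top1mt, the topoisomerase of mitochondrial DNA, fell by 0.32 and by 0.34. Of 16 tested hypoxia targets 4 rose and 1 fell in both hairpins. The rises were 25% of the list, against 6.99% and 7.46% of all genes, and the falls 6.25%, against 10.6% and 10.5%. Slc2a1, a glucose transporter, rose by 0.29 and by 0.50, Ddit4 by 0.36 and by 0.41, and Pdk1, which restrains pyruvate dehydrogenase, by 0.28 and by 0.34. In the knockdown comparisons none of the genes in the lists of mitochondrial function, regulators and hypoxia targets passed, on either day.

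Some genes of other cell types also changed with time. Of 6 epithelial or reprogramming genes, 1 rose in control cells (Cdh1, by 0.96) and 4 in knockdown cells (Cdh1 by 1.99, Epcam by 1.24, Sall4 by 0.87 and Nanog by 0.60). These rises over time were 16.7% and 66.7% of the list, against 6.99% and 7.46% of all genes. Cdh1, Sall4 and Nanog were higher with the hairpin on day 6 (50% of the list, against 0.0392% of all genes). The mean level of the 6 genes per array was 5.30 to 5.43, 5.31 to 5.36, 5.55 to 5.64 and 6.16 to 6.29 in day 3 control, day 3 knockdown, day 6 control and day 6 knockdown cells. Of 5 tested macrophage genes only Cd68 passed, with falls of 1.19 and 1.23 (20% of the list, against 10.6% and 10.5% of all genes). Of 4 tested endothelial genes Kdr rose from 5.86 ± 0.19 to 6.86 ± 0.12 in control and from 5.76 ± 0.05 to 7.01 ± 0.26 in knockdown cells. Cdh5 rose by 0.40 and by 0.51. The endothelial rises were 50% of the list in both hairpins, against 6.99% and 7.46% of all genes. The other tested endothelial genes did not pass. Of the 4 endothelial changes, 2 in control and 1 in knockdown cells were below 0. The mean level of the 6 macrophage genes was 5.41 to 5.47, 5.45 to 5.53, 5.15 to 5.22 and 5.11 to 5.21 in the same order, and that of the 5 endothelial genes 6.10 to 6.26, 6.17 to 6.22, 6.37 to 6.50 and 6.41 to 6.55. The 8 fibroblast genes did not pass in any comparison, with means of 9.80 to 9.84, 9.70 to 9.87, 9.74 to 10.23 and 9.65 to 10.17. The part of these cells in the changes of the respiratory chain genes was not tested.

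A RefSeq promoter was at hand for 64 of the 80 members on GRCm38.p6, and the 250 bases before each start were searched on both strands for 6 motifs. A gene with several starts counted when any of its windows held the motif. The NRF1 motif, GCGCA and GCGC with any 1 base between them, was in 11 of 64 (17.2%), against 4.23% of 27025 genes, and the ETS motif CCGGAAG of GABP in 12 (18.8%), against 7.83%. The YY1 motif AAGATGGCG was in 1 (1.56%), against 0.71%. The general motifs were closer to the background: Sp1, GGGCGG, in 24 (37.5%, against 35.4%), CCAAT in 26 (40.6%, against 37.5%) and the TATA motif TATAAA in 7 (10.9%, against 14.3%). The motifs do not contain each other. Median GC content was 56.4% in members and 52.4% in all genes, with a median of 14 and 6 CG dinucleotides, so the GC-rich motifs are set beside windows of another base composition. Of the 11 matched members called over time, Ndufa5 held an NRF1 match and Atp5e, Ndufb6 and Uqcrh an ETS match. Of the same 11, 6 held an Sp1 match, 6 a CCAAT match, 1 a TATA match and 0 a YY1 match. These members moved in both directions.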

How the data were processed

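The authors deposited 1 table of signal intensity for 41345 probe sets on 12 arrays, which the submitters' processing notes trace to RMA with Affymetrix Expression Console (version 1.3.0.187). RNA was labelled from 100 ng per sample, per the labels' protocols. Intensities ran from 4.71 to 13421, a linear scale, so log2 was taken. The array's genome build and annotation version: not given in the sources used here.

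Of the probe sets, 23521 named 1 gene, 1814 several and 16010 none. The probe set with the highest mean stood for a gene with several, which applied to 9 members. Genes under the 30th percentile of an array (log2 4.30 to 4.38) on more than 9 arrays were left out, which left 17860 genes. limma 3.58.1 in R 4.3.3 fitted 4 group means (8 residual and 4.37 prior degrees of freedom). Tests were two-sided, with Benjamini-Hochberg adjustment over all genes and a threshold of 0.05. The script was tested on simulated data. Tables used Python 3.11.15 and pandas 2.3.3, and plots matplotlib 3.10.9. The number of arrays limits the precision.

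Genes named are, in each complex, up to 4 rises and 4 falls among members called in a comparison over time whose groups did not overlap. In a knockdown comparison they are the 3 members of each direction with the smallest p where fewer passed, and in complex IV and the c subunit the isoform sets. In other lists they are up to 3 called genes with the largest change. Levels of unlike probe sets were not ranked. The members and lists were chosen with earlier results of these data known.

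Groups share replicate numbers. Deviations from the group means correlated between same-number arrays in all 12 pairs compared (0.137 to 0.373, across genes). The numbers may thus pair the samples, which comes from this check and not from the labels. The main tests, standard errors and intervals leave a pairing out of account. Alternatives were the replicate number as a block, no filter, a stricter filter (50th percentile), repeated quantile normalization, median centring, the mean of a gene's probe sets, array weights, a mean-variance trend, fits on the compared groups alone, and leaving out each array or each replicate number.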

Additional observations from a re-analysis of the deposited data

How the results depend on the processing

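No member passed in the knockdown comparisons or in the difference between days under any alternative run, and no named member changed sign. Over time the calls depended on the setting. Genes higher in control cells numbered 5 with repeated quantile normalization and 1 with median centring (4 lower in each), against 3 higher and 4 lower. In knockdown cells 2 were higher with median centring, and 10 were lower with the stricter filter, 11 with a mean-variance trend and 3 on the knockdown arrays alone, against 4 higher and 6 lower. Leaving out an array or a replicate number gave 0 to 3 higher and 0 to 4 lower in control, and 1 to 5 higher and 1 to 6 lower in knockdown cells. Without replicate 2 in all groups no control call was left. With the replicate number as a block the counts were 2 higher and 4 lower in control and 5 higher and 5 lower in knockdown cells. The block ended the calls of Atp5e in control and Atp5g1 in knockdown cells, added Cox7a1 in knockdown cells and changed no other call. For the named members each result was read under each setting, called or not in the main fit. Under other settings a call was lost in 19 of these readings, and 338 kept their status. When arrays or replicate numbers were left out, a call was lost in 89 readings and 526 kept their status. Complex medians moved beyond the spread between replicates in 6 and 16 cases, and some, all near 0, changed sign. The cause was not tested.

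Each group holds 3 arrays, and leaving one out lowers the degrees of freedom of the fit.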
